A study of Mus musculus with 6 samples.

Results

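The genes described here encode the heat shock protein (HSP), J-domain (DNAJ) and CCT chaperones of the mouse, together with the heat shock factors Hsf1 and Hsf2. They were taken by name: protein-coding genes of GENCODE M21 whose symbols start with Hsp90, with Hsp followed by a, b, d, e or h and a number, with Dnaja, Dnajb or Dnajc and a number, or with Cct2 to Cct8, plus Tcp1, Hsf1 and Hsf2. The rule gave 83 of the 54232 gene IDs in the count files, of which 21983 are protein-coding. By family these were 3 HSP90, 14 HSP70, 2 HSP60, 8 small HSP, 45 DNAJ, 9 CCT and 2 HSF genes. By the place where the protein works, 43 were counted as cytosolic, 8 as mitochondrial, 11 as endoplasmic reticulum (ER), 2 as regulators and 19 as other or not assigned.

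Chaperones hold or fold other proteins. HSP70 binds exposed stretches of unfolded protein in a cycle driven by ATP, in which a J-domain protein delivers the client and starts hydrolysis and a nucleotide exchange factor such as an HSP110 protein releases it. HSP90 takes clients such as kinases and hormone receptors from HSP70, and the chaperonins, CCT in the cytosol and HSP60 with its lid HSP10 in mitochondria, enclose a client in a chamber. CCT folds actin and tubulin. Maturing red cells make very large amounts of globin, and HSP70 is known in human erythroblasts for shielding the transcription factor GATA1 from caspase cleavage.

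RNA was measured by sequencing in E13.5 fetal liver cells of C57/B6 mice, purified as negative for Ter-119, an antigen carried by maturing red cells. The 3 day 0 libraries come from the purified cells with no treatment. The 3 libraries at 30 h come from cells kept in medium with EPO (erythropoietin), to which DMSO, the solvent, was added at 24 h for the last 6 h. It serves as the control of Z-VAD-FMK, a caspase inhibitor, and libraries with that inhibitor were not analysed here. All libraries are labelled progenitor cells, and the labels do not say whether replicates are separate animals or cultures, so a p-value here reflects sample spread that may be technical.

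Library totals ran from 19241780 to 29949173 counts. Levels are CPM (a gene's count as a part of its library's total after TMM scaling), each mean ± SD has n = 3, and log2 changes are 30 h minus day 0 with their standard error (SE). A gene was called where its adjusted p fell below 0.05 in edgeR's quasi-likelihood test, with Benjamini-Hochberg adjustment over the 16150 genes tested. The progenitor label was checked against marker genes. The summed level of 8 erythroid markers was 1154 to 1276 CPM at day 0 and 86470 to 126400 CPM at 30 h, with 8 of 8 higher. The day 0 cells also carried markers of other fetal liver cells: 8 hepatoblast markers summed to 13820 to 15690 CPM at day 0 and 792 to 2286 CPM at 30 h, with 8 of 8 lower, 8 mesenchymal markers to 1534 to 1954 and 35.5 to 93.2 CPM, with 7 of 8 lower, and 6 endothelial markers to 168 to 194 and 30.3 to 38.5 CPM, with 6 of 6 lower. Granulocyte and mast cell markers summed to 2583 to 2665 CPM at day 0 and 1094 to 1251 CPM at 30 h, with 3 of 6 lower and 1 higher. Macrophage markers summed to 128 to 142 CPM and 143 to 213 CPM, with 3 of 6 higher and 1 lower. Megakaryocyte markers summed to 570 to 688 CPM and 597 to 975 CPM, with 1 of 6 higher and 3 lower. In none of these lists was a marker at 0 in every library of a group. The megakaryocyte sums overlapped between the groups. The other lists changed between the same groups as every chaperone result below. The part of any of these lists in those results was not tested. In bulk RNA, fewer cells of a type and less RNA per cell cannot be told apart.

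For 67 of the 83 genes a promoter window, from 250 bases before to 50 bases after a RefSeq start, was at hand (GRCm38.p6). The heat shock element, searched on both strands as the letters GAANNTTCNNGAA, is the binding site of heat shock factors. It stood in 0.603% of all 32851 windows and in 6 of the 86 windows of the 67 genes. These 6 windows belong to 4 genes, of which Hspe1 and Hspd1 share the same matches. The windows of 3 of the 4 genes are shown because they carry the element beside genes that moved in opposite directions. Hspe1, the mitochondrial co-chaperonin HSP10 (higher at 30 h), lies at chr1:55087898-55088197 on the plus strand. Hsph1, an HSP110 exchange factor (lower at 30 h), lies at chr5:149636287-149636586 on the minus strand. Dnajb6, a J-domain protein that holds aggregation-prone proteins (higher at 30 h), lies at chr5:29735648-29735947 on the plus strand. Capitals mark the element, which in Hspe1 occurs as 2 overlapping matches. In Hsph1 the match begins 36 bases after the RefSeq start, and in Hspe1 and Dnajb6 it lies before the start.
Hspe1: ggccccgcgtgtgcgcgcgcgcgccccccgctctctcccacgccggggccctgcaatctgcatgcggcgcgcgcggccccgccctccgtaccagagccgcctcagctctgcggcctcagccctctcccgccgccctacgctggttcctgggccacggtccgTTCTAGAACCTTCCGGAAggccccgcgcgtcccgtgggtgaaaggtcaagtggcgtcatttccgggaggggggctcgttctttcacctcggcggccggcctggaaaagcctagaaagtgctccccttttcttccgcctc
Hsph1: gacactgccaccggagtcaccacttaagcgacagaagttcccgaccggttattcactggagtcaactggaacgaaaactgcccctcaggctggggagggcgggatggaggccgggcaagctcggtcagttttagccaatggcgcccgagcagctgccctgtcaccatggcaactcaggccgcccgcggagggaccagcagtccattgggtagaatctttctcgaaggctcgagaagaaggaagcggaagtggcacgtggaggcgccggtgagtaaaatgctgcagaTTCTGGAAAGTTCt
Dnajb6: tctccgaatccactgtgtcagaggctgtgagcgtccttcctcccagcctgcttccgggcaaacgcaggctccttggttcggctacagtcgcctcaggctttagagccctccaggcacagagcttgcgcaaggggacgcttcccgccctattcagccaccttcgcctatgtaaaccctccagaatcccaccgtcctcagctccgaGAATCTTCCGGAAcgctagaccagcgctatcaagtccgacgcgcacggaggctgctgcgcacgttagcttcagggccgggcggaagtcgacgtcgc
A match is a description of letters and was not tested as a binding site.

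The chaperones as a whole changed in both directions about equally. Of 77 members that passed the filter on low counts, 29 were higher and 29 lower at 30 h, together 75.3%, beside 74.5% of all genes called, 34.4% higher and 40.1% lower. Their median log2 change was -0.09, the value over all genes tested. The 6 members not tested were Cct8l1, Dnajb7, Dnajb8, Dnajc5b, Dnajc5g and Hspb9. A called change of 2-fold or more was found for 12 members in each direction, against a background of 20.6% of genes for rises and 28.2% for falls. For 65 of 77 members (84.4%; background 79.7%) every library of a group lay above every library of the other. With libraries scaled by their totals only, the split was 19 higher and 45 lower, beside 22.3% and 54.4% of all genes. The median of all genes was then -0.58.

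The families differed in their sums. The summed HSP90 level was 5249, 5342 and 5268 CPM in the day 0 libraries and 3762, 3568 and 2917 CPM in the 30 h libraries. The HSP70 sum was 3919, 3870 and 3923 CPM and then 3003, 2918 and 2559 CPM. The DNAJ sum was 2406, 2392 and 2401 CPM and then 3489, 3349 and 3450 CPM. With TMM all 3 day 0 libraries were above all 3 at 30 h for HSP90 and HSP70, and below them for DNAJ. With libraries scaled by their totals only, the DNAJ sums overlapped, at 2842, 2830.3 and 2851 CPM at day 0 and 2927, 2920 and 2826 CPM at 30 h, and the HSP90 and HSP70 sums were still lower at 30 h with no overlap. The CCT sum went from 6212 ± 117 to 5637 ± 95.0 CPM, the HSP60 sum from 835 ± 14.2 to 466 ± 49.3 CPM, and the small HSP sum from 27.2 ± 0.253 to 24.0 ± 1.83 CPM. The ratio of the DNAJ sum to the HSP70 sum, which needs no scaling between libraries, was 0.615 ± 0.00304 at day 0 and 1.22 ± 0.112 at 30 h. Both sums mix genes of different roles and places, and abundant genes weigh most. The largest DNAJ rises in CPM were Dnajc9 (124 to 415), Dnajb2 (18.3 to 293) and Dnajc8 (216 to 399), while 12 DNAJ genes were called lower. The largest HSP70 falls were Hspa4 (605 to 255), Hspa8 (768 to 428) and Hspa5 (1194 to 892), while 4 HSP70 genes were called higher. All members together held 2.20% to 2.24% of the counts at day 0 and 1.25% to 1.38% at 30 h, where globin genes held 8.73% to 13.2%.

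**Figure D1:**
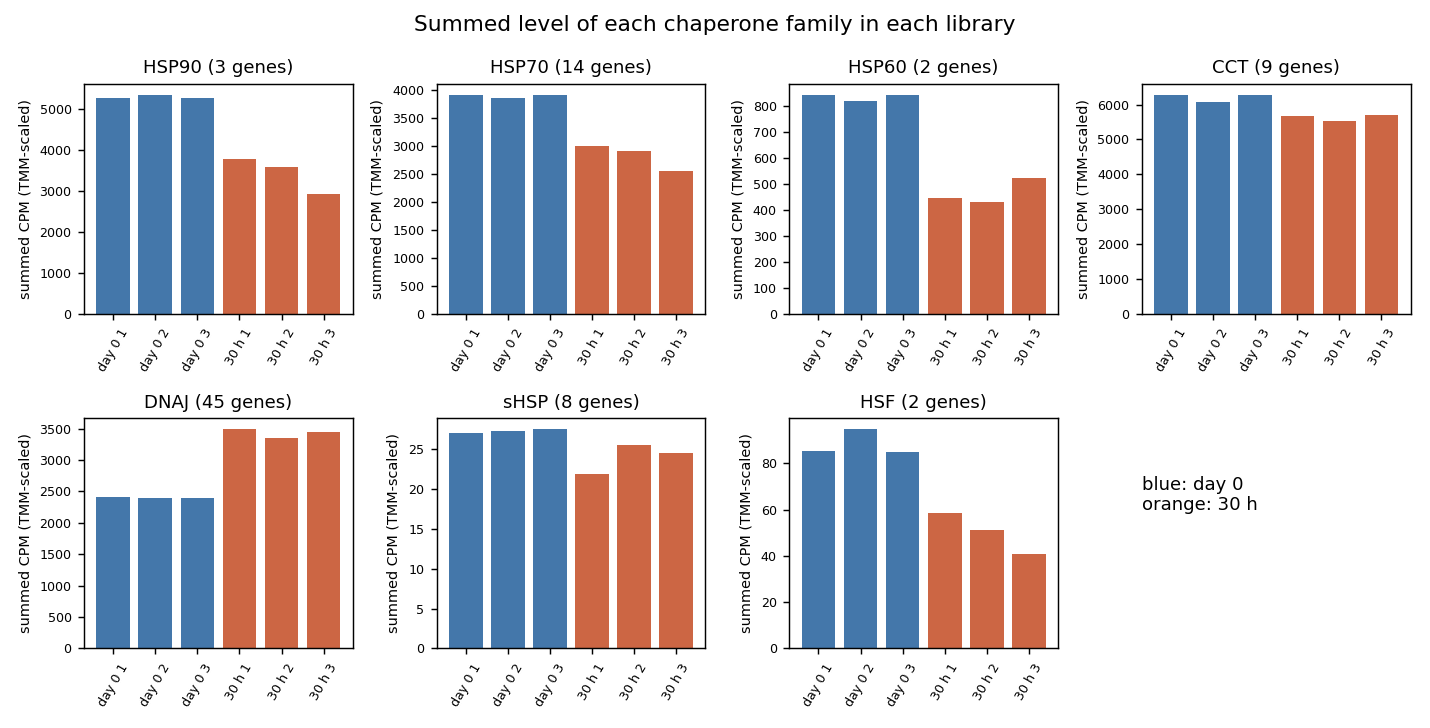
Summed TMM-scaled CPM of each chaperone family in each library (bars; blue day 0, orange 30 h; each panel has its own axis from 0). With this scaling the DNAJ sum is higher in the 3 libraries at 30 h (mean 3429 against 2400 CPM; 2891 against 2841 CPM and overlapping with totals only), and the HSP90 sum is lower (3416 against 5287 CPM).

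Over all genes 34.4% were higher and 40.1% lower. Among HSP70, HSP90 and HSP60 genes, 5 were higher and 10 lower of 19, with a median log2 change of -0.42. Among DNAJ genes, 20 were higher and 12 lower of 41 tested, with a median of 0.21. With scaling by totals only these counts were 3 and 12, and 15 and 19, with a DNAJ median of -0.27, beside 22.3% of all genes higher and 54.4% lower. The difference between the families was not tested.

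Both cytosolic HSP90 genes fell. Hsp90ab1, the constitutive form, had the highest level per kb of any cytosolic member in both groups. Its level was 4227, 4309 and 4255 CPM at day 0 and 3036, 2847 and 2294 CPM at 30 h, so the groups did not overlap, and the lowest value came from replicate 3 at 30 h. The log2 change was -0.65 ± 0.12 (SE; adjusted p = 0.001632). Hsp90aa1, the stress-inducible form, went from 333 ± 6.03 to 180 ± 36.7 CPM, a 1.85-fold lower level (log2 -0.89 ± 0.15, adjusted p = 0.0009072). Of its exon sequence, 58.5% of the 50-base words also occur elsewhere in the transcripts, among them those of Gm12346, which was at 1.36 ± 0.292 and 0.816 ± 0.352 CPM. The ratio of Hsp90ab1 to Hsp90aa1 was 12.7, 13.2 and 12.6 at day 0 and 14.2, 15.5 and 16.2 at 30 h (two-sided exact permutation p = 0.1, the smallest that 3 against 3 can give).

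The constitutive cytosolic HSP70 and the exchange factors of the HSP110 type fell together, with 1 exception. Hspa8, which encodes HSC70, was at 756, 758 and 790 CPM at day 0 and at 464, 440 and 382 CPM at 30 h, with no overlap (log2 -0.84 ± 0.10, adjusted p = 0.0001446). Of its 50-base words, 51.4% occur in other transcripts, among them that of Gm15459, which had no read. Hspa4, an HSP110-type exchange factor, was at 600.0, 609 and 606 CPM and then at 302, 268 and 196 CPM, a 2.37-fold lower level (log2 -1.25 ± 0.16, adjusted p = 0.0001761). Hsph1, whose promoter window is printed above, went from 295 ± 4.82 to 131 ± 27.7 CPM, 2.25-fold lower. The spread at 30 h was wider than at day 0 for each of the 3 genes, with replicate 3 lowest. The third exchange factor, Hspa4l, had 51.8, 51.7 and 56.1 CPM at day 0 and 98.6, 81.0 and 62.3 CPM at 30 h and was called higher (log2 0.60 ± 0.16, adjusted p = 0.01025), but not with scaling by totals only (0.11) or with each library's GC trend removed (0.091).

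Other cytosolic HSP70 genes rose. Hspa14, which encodes a ribosome-associated HSP70-like protein, was at 152, 143 and 152 CPM at day 0 and 263, 260 and 278 CPM at 30 h, 1.79-fold higher (log2 0.84 ± 0.09, adjusted p = 6.284e-05). Dnajc2, the J-domain protein that pairs with it at the ribosome, moved the other way, from 105 ± 3.69 to 66.4 ± 4.60 CPM (log2 -0.66 ± 0.10, adjusted p = 0.0003834). The stress-inducible copies Hspa1a and Hspa1b share 60.3% and 62.3% of their 50-base words, so only their sum is given: 1.70, 2.19 and 1.91 CPM at day 0 and 5.38, 7.69 and 4.78 CPM at 30 h. The sum was 3.08-fold higher with no overlap, and each copy alone was called higher. The ratio of Hspa8 to this sum went from 401 ± 50.9 to 74.4 ± 15.2. Hspa2 and Hspa1l, HSP70 genes of germ cells, were not called.

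The small HSP genes were low in both groups and split. Hspb7, which encodes a small HSP of heart muscle, had 6.93, 7.42 and 7.83 CPM at day 0 and 0.247, 0.0596 and 0.126 CPM at 30 h, the largest fall of all cytosolic members (log2 -5.57 ± 0.30, adjusted p = 2.588e-06). The 30 h values rest on 5, 1 and 2 counts. The summed level of 6 cardiac muscle markers was 287 to 306 CPM at day 0 and 25.8 to 54.7 CPM at 30 h, 5 of 5 tested were lower, and Nppa was at 0 in the 30 h libraries; their part in the result was not tested. Hspb3 was also called lower (adjusted p = 0.007476), with 20, 18 and 14 reads in the day 0 libraries against 0, 0 and 3 reads at 30 h, and without replicate 3 at 30 h it has no read in that group. Hspb8, a partner of BAG3, fell from 5.47 ± 0.796 to 2.63 ± 1.02 CPM (log2 -1.08 ± 0.28, adjusted p = 0.008937; -0.71 without 30 h replicate 1). Hspb6 rose from 4.88 ± 0.236 to 9.53 ± 3.52 CPM (log2 0.97 ± 0.26, adjusted p = 0.009551), a call lost with scaling by totals only (0.49). Hspb11, an intraflagellar transport subunit, was called higher (0.95), but not with totals only (0.46) or the length trend removed (0.012), and changed sign with GC and length trends removed (-0.45). Hspb1 and Hspb2 were not called, and Hspb9 was not tested.

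**Figure D2:**
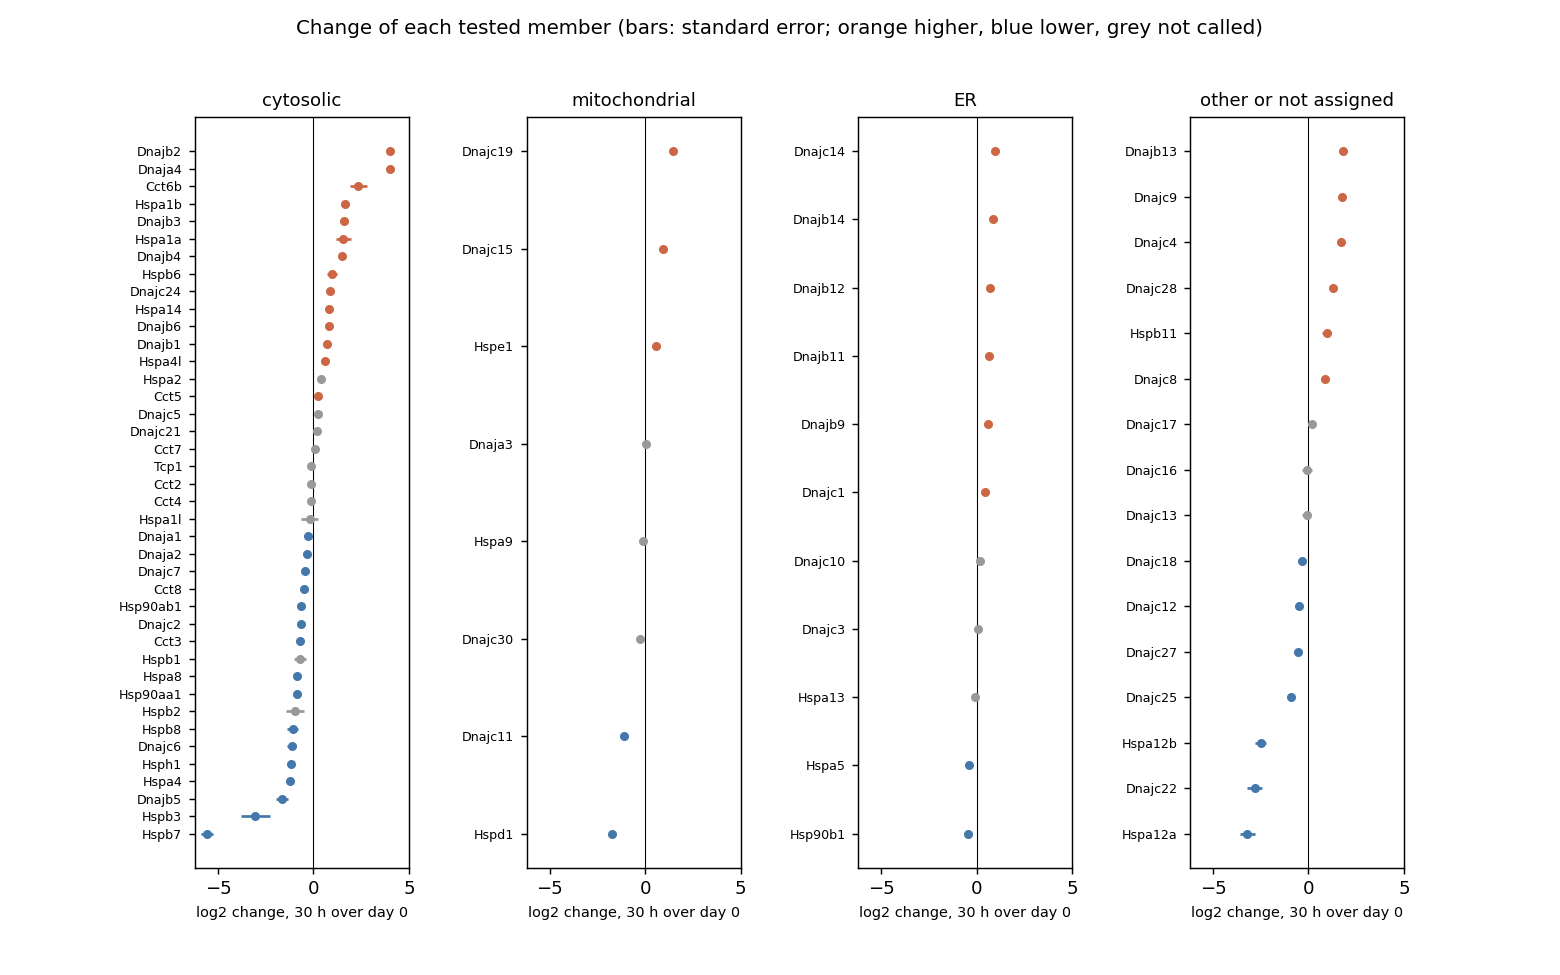
Log2 change (30 h over day 0) of the tested members by compartment, with points for the fitted change and bars for its standard error; orange marks higher, blue lower and grey not called, and Hsf1 and Hsf2 are left out. Dnajb2 and Dnaja4 stand at the top of the cytosolic panel (16.0-fold and 15.9-fold higher), and Hspb7 at the bottom (-5.57).

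J-domain proteins set which client an HSP70 receives, and they gave the largest rises among the chaperones. Dnajb2, a J-domain protein with ubiquitin-interacting motifs, was at 18.7, 19.2 and 16.8 CPM at day 0 and at 308, 292 and 278 CPM at 30 h. Every 30 h value was far above every day 0 value, and the level was 16.0-fold higher (log2 4.003 ± 0.11, adjusted p = 2.617e-07). Per kb of main transcript, mean levels of Dnajb2 and Hspa8 were 9.84 and 321 CPM per kb at day 0 and 158 and 179 CPM per kb at 30 h. The ratio of Hspa8 to Dnajb2 counts went from 42.3 ± 4.07 to 1.46 ± 0.0751. Of their 50-base words, 51.4% for Hspa8 and 0% for Dnajb2 occur in other transcripts, so the levels of the 2 genes may not compare directly. Dnaja4 was at 5.12, 5.43 and 4.52 CPM and then at 89.0, 75.9 and 74.3 CPM, 15.9-fold higher (log2 3.99 ± 0.13, adjusted p = 5.496e-07). Of its exon bases, 44.1% overlap Wdr61 on the opposite strand. No source used here states the strand setting of the counting, so reads in that shared part cannot be assigned to either gene. How many of the Dnaja4 counts come from the shared part was not tested.

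Split by structural class, the DNAJB genes stood on one side. Of 11 tested DNAJB genes, 10 were higher and only Dnajb5 was lower, beside 34.4% and 40.1% of all genes. Their median log2 change was 0.82, and the groups overlapped for none of them (79.7% of all genes did not overlap). Scaled by totals alone, 7 of them were called higher and 1 lower, beside 22.3% and 54.4% of all genes. The median was then 0.33 beside -0.58 over all genes. Dnajb9, Dnajb11, Dnajb12 and Dnajb14 are counted again among the ER genes below. Dnajb4 went from 32.5 ± 2.29 to 91.2 ± 10.1 CPM, 2.80-fold higher. Dnajb1, the classical stress-inducible HSP40, went from 129 ± 2.02 to 214 ± 4.59 CPM (log2 0.72 ± 0.09, adjusted p = 0.0001117). Dnajb6 was at 11.7, 13.6 and 13.7 CPM at day 0 and 21.4, 24.6 and 22.9 CPM at 30 h (log2 0.82 ± 0.12, adjusted p = 0.0003503). These 3 genes rose in each 30 h library. Of the 50-base words of Dnajb6, 35.8% occur in other transcripts, among them those of Gm2541. Dnajb3 rose 3.08-fold from 4.12 CPM and Dnajb13, a sperm flagellum protein, 3.50-fold from 1.22 CPM. Dnajb5 fell from 6.54 ± 0.495 to 2.09 ± 1.07 CPM (log2 -1.67 ± 0.31, adjusted p = 0.001581).

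The other classes did not lean the same way. Of the 4 DNAJA genes 1 was higher and 2 lower, and of 26 tested DNAJC genes 9 were higher and 9 lower, with a median of 0.10. Over all genes 34.4% were higher and 40.1% lower. Dnaja2, a J-domain partner of HSP70, was at 289, 282 and 281 CPM and fell to 227, 209 and 227 CPM, 1.28-fold lower (log2 -0.36 ± 0.09, adjusted p = 0.005994). With the length trend removed its change was -0.079 and no longer called. Dnaja1 went from 66.7 ± 0.453 to 54.2 ± 1.99 CPM (log2 -0.30 ± 0.09, adjusted p = 0.01409), a call lost with DESeq2 size factors (-0.24), without day 0 replicate 1 (-0.32) or 2 (-0.31) and without 30 h replicate 1 (-0.22) or 2 (-0.29), and reversed with the length trend removed (0.22). Dnajc7, which links HSP70 and HSP90, fell 1.35-fold. Dnajc24, of diphthamide synthesis, rose 1.83-fold, and Dnajc6, the clathrin uncoating factor auxilin, fell 2.20-fold from 2.00 CPM. Dnajc5, the cysteine string protein of vesicles, and Dnajc21, of ribosome maturation, overlapped between the groups and were not called.

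**Figure D3:**
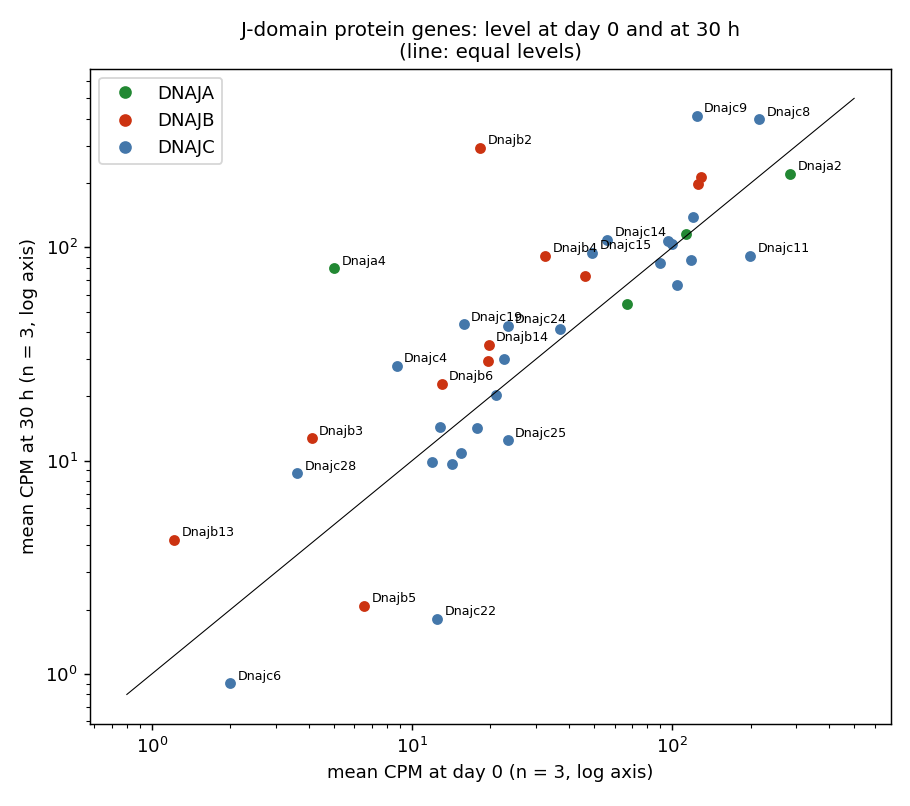
Mean CPM of each tested J-domain gene at day 0 (x axis) and 30 h (y axis), both on log axes, n = 3 per group, coloured by class; the line marks equal levels. DNAJB genes lie above the line except Dnajb5, and Dnajb2 (18.3 and 293 CPM) and Dnaja4 (5.02 and 79.7 CPM) lie farthest above it.

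Of the CCT chaperonin, whose ring is built from 8 different subunits, 7 were members. Its zeta subunit Cct6a has no protein-coding type in GENCODE M21, so the rule leaves it out, and its values are given beside the others. Among the 7, Cct5 was called higher, Cct3 and Cct8 lower, and Tcp1, Cct2, Cct4 and Cct7 were not called. Over all genes 34.4% were higher and 40.1% lower. Cct3 was at 957, 901 and 931 CPM at day 0 and at 563, 575 and 556 CPM at 30 h, with the 3 values of each group close together (log2 -0.72 ± 0.09, adjusted p = 0.0001228). Cct8 went from 786 ± 18.9 to 554 ± 35.3 CPM (log2 -0.51 ± 0.09, adjusted p = 0.001297). Cct6a went from 923 ± 38.1 to 530 ± 27.4 CPM (log2 -0.80 ± 0.09, adjusted p = 0.0001027).

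The rise of Cct5 was small and was not called under all settings. It was at 1021, 981 and 1022 CPM at day 0 and 1146, 1130 and 1338 CPM at 30 h (log2 0.26 ± 0.10, adjusted p = 0.04774). The call was lost without day 0 replicate 1 (0.25), 2 (0.22) or 3 (0.25) and without 30 h replicate 2 (0.30), with upper quartile scaling (0.13), without the count filter (0.17), and reversed with scaling by totals only (-0.23). Tcp1, Cct2, Cct4 and Cct7 had log2 changes of -0.11, -0.15, -0.15 and 0.09. With scaling by totals only all 7 were lower, and with upper quartile scaling 5 were lower. Over all genes 54.4% and 44.4% were lower with these scalings. Cct6b, the zeta form known from testis, was called higher at a very low level, from 4, 7 and 8 reads in the day 0 libraries to 22, 9 and 20 reads in those at 30 h.

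The spread among subunits within a library needs no scaling. Per kb of main transcript, the highest of the 8 subunits was 1.65 to 1.75 times the lowest in the day 0 libraries and 2.86 to 3.35 times in those at 30 h. The coefficient of variation over subunits was 20.1% to 21% at day 0 and 37.2% to 45.6% at 30 h, with no overlap. Cct5 had the highest level per kb in every library (544 ± 12.6 and 650.1 ± 62.3 CPM per kb). The lowest was Cct4 at day 0 (320 ± 16.2 CPM per kb) and Cct6a or Cct8 at 30 h (216 ± 11.2 and 231 ± 14.7 CPM per kb), which lay close to each other.

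**Figure D4:**
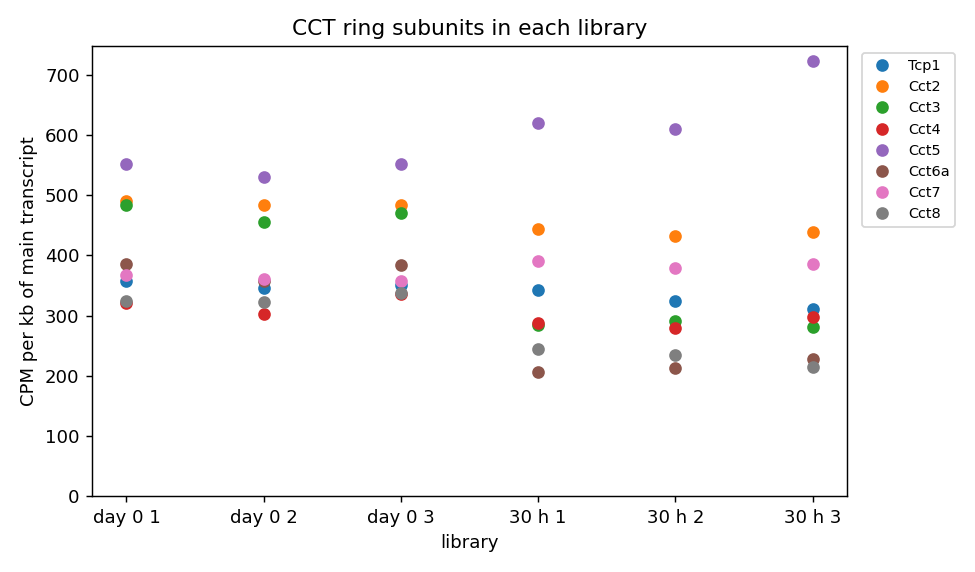
Level per kb of main transcript (CPM per kb, axis from 0) of the 8 CCT ring subunits in each of the 6 libraries. The points lie closer together at day 0 (highest 1.65 to 1.75 times the lowest) than at 30 h (2.86 to 3.35 times), where Cct5 lies at the top and Cct3, Cct8 and Cct6a have moved down.

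In mitochondria, the genes of the chaperonin moved apart. Hspd1 encodes HSP60, which forms the folding chamber, and Hspe1 encodes HSP10, its lid. Hspd1 was at 655, 654 and 661 CPM at day 0 and at 230.1, 205 and 164 CPM at 30 h, 3.29-fold lower (log2 -1.72 ± 0.13, adjusted p = 1.476e-05). Hspe1 was at 187, 165 and 183 CPM and then at 214, 227 and 359 CPM (log2 0.58 ± 0.20, adjusted p = 0.02654). The groups did not overlap for either gene, and 30 h replicate 3 had the lowest Hspd1 and the highest Hspe1. The ratio of Hspd1 to Hspe1 within a library was 3.51, 3.97 and 3.61 at day 0 and 1.08, 0.904 and 0.457 at 30 h (two-sided exact permutation p = 0.1, the smallest possible with 3 against 3).

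**Figure D5:**
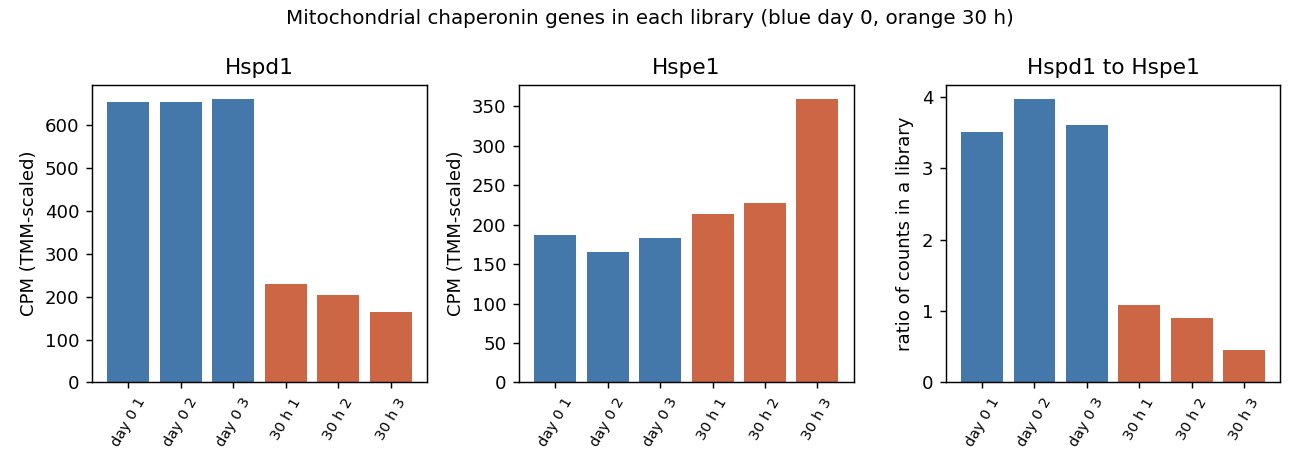
TMM-scaled CPM of Hspd1 and of Hspe1, and the ratio of their counts, in each library (bars from 0; blue day 0, orange 30 h). Hspd1 is lower and Hspe1 higher in the 3 libraries at 30 h, and the ratio is 3.51 to 3.97 at day 0 and 0.457 to 1.08 at 30 h.

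The fall of Hspd1 was called in the same direction under all 17 alternatives tried, but the rise of Hspe1 was not. Without day 0 replicate 1, 2 or 3 its log2 change was 0.60, 0.51 and 0.58, with totals only 0.085 and with upper quartile scaling 0.47, each not called. Without 30 h replicate 3 it was 0.31 and still called. Short transcripts were higher at 30 h over all genes: the median log2 change was 0.58 in the fifth of genes with the shortest main transcripts, from 56 to 1494 bases, and -0.47 in the fifth with the longest. The main transcript of Hspe1 has 774 bases and that of Hspd1 2423. With each library's length trend removed Hspe1 was at -0.16, and with GC and length trends removed at -0.19, neither called. The genes lie head to head on chromosome 1, with Hspd1 at 55077835 to 55088243 on the minus strand and Hspe1 at 55088132 to 55091307 on the plus strand (GENCODE M21, mm10 assembly), and share 112 exon bases. The heat shock elements printed above, at 55088059 to 55088076, also lie in the window of an Hspd1 start. Of the 50-base words of Hspd1, 44.8% occur elsewhere, among them in Hspd1-ps3, which was at 1.12 ± 0.203 and 0.258 ± 0.0800 CPM.

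Of the other mitochondrial members, the HSP70 of the matrix was not called and the J-domain proteins went both ways. Hspa9, which encodes mortalin, had 761, 730.3 and 748 CPM at day 0 and 777, 706 and 616 CPM at 30 h, overlapping and not called (log2 -0.09 ± 0.11). Dnajc19, a J-domain subunit of the import motor in the inner membrane, was at 15.4, 16.6 and 15.4 CPM and then at 38.8, 36.9 and 55.3 CPM, 2.76-fold higher (log2 1.47 ± 0.17, adjusted p = 0.0001024). Dnajc15, also of the inner membrane, went from 49.2 ± 4.33 to 94.5 ± 31.9 CPM (log2 0.94 ± 0.22, adjusted p = 0.004979), a call lost with scaling by totals only (0.44). Dnajc11, tied to the cristae, was at 200, 204 and 194 CPM and then at 107, 93.2 and 73.3 CPM, 2.19-fold lower (log2 -1.13 ± 0.14, adjusted p = 0.0001753). Dnaja3 and Dnajc30 were not called. In all 3 of the 8 mitochondrial members were higher and 2 lower, beside 34.4% and 40.1% of all genes. With scaling by totals only the members split 1 and 5, beside 22.3% and 54.4% of all genes.

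In the ER, the abundant chaperones of the lumen were lower and several J-domain proteins higher. The ER stress element, searched on both strands as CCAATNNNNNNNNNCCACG, is known as a binding site of the unfolded protein response. It stood in 0.119% of all windows and in 3 of the 86 windows of the 67 genes, each of a different gene. They are shown because they belong to 3 lumenal chaperone genes that were not called higher: Hspa5 at chr2:34771840-34772139 (plus strand), Hsp90b1 at chr10:86705395-86705694 (minus strand) and Dnajc3 at chr14:118937682-118937981 (plus strand). Capitals mark the element, which occurs 2 times in Hsp90b1, on opposite strands.
Hspa5: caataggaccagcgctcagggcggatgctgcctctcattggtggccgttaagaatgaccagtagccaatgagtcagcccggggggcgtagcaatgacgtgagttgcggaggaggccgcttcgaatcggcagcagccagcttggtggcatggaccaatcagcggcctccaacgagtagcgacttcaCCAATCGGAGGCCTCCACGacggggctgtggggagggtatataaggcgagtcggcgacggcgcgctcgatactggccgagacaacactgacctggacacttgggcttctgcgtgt
Hsp90b1: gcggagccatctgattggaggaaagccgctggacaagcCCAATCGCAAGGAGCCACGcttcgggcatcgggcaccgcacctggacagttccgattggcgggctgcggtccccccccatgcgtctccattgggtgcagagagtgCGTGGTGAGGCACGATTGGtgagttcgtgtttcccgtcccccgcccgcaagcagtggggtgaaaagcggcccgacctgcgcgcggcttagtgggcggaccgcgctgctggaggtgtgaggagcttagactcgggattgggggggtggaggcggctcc
Dnajc3: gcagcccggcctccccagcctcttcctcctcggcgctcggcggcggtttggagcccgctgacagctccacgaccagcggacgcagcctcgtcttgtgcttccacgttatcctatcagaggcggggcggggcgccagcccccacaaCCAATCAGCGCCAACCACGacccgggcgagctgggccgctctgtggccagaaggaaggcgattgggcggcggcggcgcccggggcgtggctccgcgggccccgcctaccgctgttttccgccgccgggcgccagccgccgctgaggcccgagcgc
Hspa5, which encodes BiP, the HSP70 of the ER, was at 1214, 1186 and 1182 CPM at day 0 and at 872, 954 and 851 CPM at 30 h (log2 -0.42 ± 0.09, adjusted p = 0.003262). Hsp90b1, which encodes GRP94, the HSP90 of the ER, was at 689, 707 and 676 CPM and then at 511, 537 and 482 CPM (log2 -0.44 ± 0.09, adjusted p = 0.002453). Both were lower in each 30 h library, and neither call held with the length trend removed (-0.035 and -0.18). Their ratio was 1.73 ± 0.0459 and 1.75 ± 0.0359 (two-sided exact permutation p = 0.5). Dnajc3, the lumenal J-domain protein p58IPK, went from 99.4 ± 2.75 to 104 ± 5.85 CPM and was not called.

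Of the 8 ER J-domain genes, 6 were higher and none was lower, beside 34.4% and 40.1% of all genes. Dnajc14, of the ER membrane, was at 57.1, 57.7 and 54.2 CPM at day 0 and at 111, 103 and 111 CPM at 30 h, 1.92-fold higher (log2 0.94 ± 0.09, adjusted p = 3.825e-05). Dnajb14 and Dnajb12, membrane proteins of ER quality control, rose 1.78-fold and 1.60-fold. The lumenal proteins Dnajb11 and Dnajb9 went from 126 ± 1.59 to 197 ± 10.1 CPM and from 19.5 ± 0.941 to 29.3 ± 2.71 CPM. The groups did not overlap for these 5 genes (79.7% of all genes did not overlap). Dnajc1 was called higher (log2 0.42 ± 0.12, adjusted p = 0.01488), but not without day 0 replicate 1 (0.38) or 3 (0.40) or without the count filter (0.32), and it changed sign with scaling by totals only (-0.071). With that scaling Dnajb11, Dnajb12 and Dnajb9 were at 0.16, 0.19 and 0.092 and no longer called. Of 11 ER members 2 were then higher and 5 lower, beside 22.3% and 54.4% of all genes. With TMM 6 and 2 of the ER members were. Dnajb9 was not called with the GC trend removed (0.16) or with GC and length trends removed (0.18) either. Dnajc10, a disulfide reductase, and Hspa13 were not called.

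Of the 16 tested members with other or unassigned places, 6 were higher and 7 lower, shares near the 34.4% and 40.1% of all genes. Dnajc9, a histone chaperone with a J domain, was at 128, 118 and 128 CPM at day 0 and at 388, 386 and 471 CPM at 30 h, 3.34-fold higher (log2 1.74 ± 0.11, adjusted p = 6.22e-06). Dnajc8, of the splicing machinery, was the most abundant of these per kb and went from 216 ± 2.06 to 399 ± 24.6 CPM (log2 0.89 ± 0.09, adjusted p = 5.522e-05). Both genes were higher in every 30 h library than at day 0. Dnajc4 rose 3.20-fold and Dnajc28 2.42-fold, from 8.71 and 3.61 CPM. The largest falls were those of Hspa12a and Hspa12b, atypical HSP70 genes, and Dnajc22. Hspa12a went from 4.58 ± 1.35 to 0.498 ± 0.292 CPM (log2 -3.20 ± 0.39, adjusted p = 0.0001427), Hspa12b from 22.5 ± 1.62 to 3.94 ± 1.75 CPM (log2 -2.49 ± 0.29, adjusted p = 0.000107), and Dnajc22 from 12.5 ± 1.56 to 1.82 ± 1.16 CPM (log2 -2.82 ± 0.38, adjusted p = 0.0002704). Smaller falls were called for Dnajc25 (1.87-fold), Dnajc27 (1.48-fold), Dnajc12 (1.41-fold) and Dnajc18 (1.25-fold). Dnajc12 and Dnajc27 were not called with the length trend removed (-0.20 and -0.15), where Dnajc18 changed sign (0.15), and Dnajc18 was also not called without day 0 replicate 1 (-0.30) or 3 (-0.33) or without 30 h replicate 1 (-0.28) or 2 (-0.31), nor with DESeq2 size factors (-0.27). The endosomal protein gene Dnajc13, with Dnajc16 and Dnajc17, overlapped between the groups and was not called. Hspa12a, Hspa12b and Dnajc22 fell beside the hepatoblast, mesenchymal and endothelial markers given above.

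Both heat shock factors fell. Hsf1, the main activator of heat shock genes, was at 65.9, 73.4 and 66.4 CPM at day 0 and at 46.8, 37.9 and 30.6 CPM at 30 h (log2 -0.83 ± 0.16, adjusted p = 0.001543). With the GC trend removed the change was -0.31 and no longer called. Hsf2, which can pair with Hsf1, was at 19.5, 21.3 and 18.4 CPM and then at 11.7, 13.2 and 10.1 CPM (log2 -0.75 ± 0.13, adjusted p = 0.001151). The groups did not overlap for either gene. Of the 4 genes with a match to the heat shock element letters in a window, Dnajb6 and Hspe1 were called higher and Hsph1 and Hspd1 lower. Hspe1 and Hspd1 share their matches, and the Hspe1 call was lost under several settings given above.

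Genes that work with the chaperones were counted in lists, to be read beside 34.4% of all genes higher and 40.1% lower. Of 22 cytosolic co-chaperones of HSP70 and HSP90, 2 were higher and 13 lower, with a median log2 change of -0.39 beside -0.09 over all genes. Fkbp4, an HSP90-binding immunophilin and the most abundant of them per kb, went from 990.2 ± 20.4 to 430.1 ± 22.0 CPM (log2 -1.20 ± 0.09, adjusted p = 1.083e-05), and Fkbp5 fell most (-1.21). Cdc37l1 rose most (1.06). Prefoldin hands actin and tubulin to CCT. Of 9 prefoldin subunits and other CCT cofactors, 7 were higher and none lower. The largest rise was that of Vbp1, a prefoldin subunit, from 91.9 ± 4.17 to 363 ± 76.8 CPM (log2 1.98 ± 0.16, adjusted p = 1.515e-05). Pfdn6, the most abundant per kb, was called higher (0.75), but not with totals only (0.25) or with the length trend removed (0.052), nor with GC and length trends removed (0.086).

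Of 12 mitochondrial partners, 6 were higher and 1 lower, beside 34.4% and 40.1% of all genes. Hscb, a J-domain cochaperone of iron-sulfur cluster assembly outside the name rule, went from 31.5 ± 1.70 to 86.3 ± 16.0 CPM (log2 1.45 ± 0.14, adjusted p = 4.825e-05), and Trap1, the mitochondrial HSP90, fell from 253 ± 3.07 to 172 ± 20.9 CPM (log2 -0.55 ± 0.11, adjusted p = 0.002296). Clpp, a matrix protease and the most abundant per kb, was not called. Of 14 ER partners, 2 were higher and 6 lower, the latter near the 40.1% of all genes. Ero1l, the oxidase that recharges disulfide isomerases, rose 5.93-fold, from 87.3 ± 2.36 to 518 ± 22.1 CPM, Pdia4, such an isomerase, fell 2.53-fold, and Calr, the lectin chaperone calreticulin, fell from 1797 ± 55.8 to 979 ± 45.8 CPM. Eif2ak1, the heme-regulated kinase of translation, was at 112, 116 and 120 CPM and then at 442, 353 and 264 CPM (log2 1.61 ± 0.18, adjusted p = 9.235e-05). Scaled by totals alone, the lists held, in the order higher then lower, 2 and 20 for the co-chaperones, 4 and 2 for prefoldin and cofactors, 2 and 6 for mitochondrial partners, and 1 and 11 for ER partners. With the GC trend removed they were 6 and 8, 5 and 0, 10 and 1, and 2 and 6. Over all genes 22.3% were higher and 54.4% lower with totals alone, and 37.9% and 36.7% with the GC trend removed.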

How the data were processed

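Each library has 1 deposited file of raw gene counts, in whole numbers. Trimming, mapping and counting tools are listed, without settings, in the submitters' processing notes as cutadapt 1.13, STAR and HTSeq 0.6.1p1, with DESeq2 and build mm10; the strand setting was not given in the sources used here. Per the labels, total RNA was purified with a column kit. Of 54232 IDs, 54165 were found in GENCODE M21, which gave symbols, types and positions; counts in the other 67 IDs made up at most 0.00474% of a library.

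Genes were filtered with filterByExpr at its defaults, scaled with TMM and tested on all 6 libraries with edgeR 4.0.16's quasi-likelihood F test, robust fitting and group as the only term (R 4.3.3); adjusted p-values are Benjamini-Hochberg over all genes tested, with a threshold of 0.05. SE were derived from the F statistic. Lengths and GC content are those of each gene's main transcript. Ratios of 2 genes were compared with exact permutation tests (scipy 1.17.1). Within a group, no libraries agreed within sampling noise (chi-square per degree of freedom 4.30 to 94.9), and replicate 3 at 30 h stood apart, at 94.9 and 52.1 from the others, which differed by 11.7.

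The members, compartments, lists and alternatives were chosen with earlier results of these data known. Named with values were the core chaperones, the 3 largest rises and falls and the highest level per kb in each compartment, and the largest rise, the largest fall and the most abundant gene of each partner list; other members were named after their values were seen. Alternatives were DESeq2 size factors, totals only, upper quartile scaling, TMM without globin genes, no filter, DESeq2 1.42.0, limma-trend (limma 3.58.1), a replicate block, omission of 1 library at a time and removal of each library's GC trend. Removal of the length trend, alone and with the GC trend, was added after the data had been seen. Promoter sequences are from RefSeq (GRCm38.p6).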

Additional observations from a re-analysis of the deposited data

How the results depend on the processing

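Of the 77 tested members, 40 were called in the same direction under all 17 alternatives, 19 higher and 21 lower. The same share over all genes was not counted, so this number has no background. With totals only, 3601 of all genes were higher, members split 19 and 45 (higher and lower), mitochondrial members 1 and 5, ER members 2 and 5 and CCT subunits 0 and 7; Cct5, Cct7, Dnaja3, Dnajc1, Dnajc10, Dnajc17, Dnajc21, Dnajc3, Dnajc5 and Hspa2 changed sign, to log2 changes of -0.23, -0.40, -0.45, -0.071, -0.34, -0.32, -0.32, -0.43, -0.27 and -0.10. With upper quartile scaling, 4 mitochondrial members were lower, CCT subunits split 0 and 5, and Cct7, Dnaja3 and Dnajc3 were at -0.042, -0.11 and -0.069. With no filter on low counts, 0 CCT subunits were higher, and Cct7, Dnaja3 and Dnajc3 were at -0.001, -0.062 and -0.030. With the GC trend removed, 2 CCT subunits were higher, and Dnajc16, Dnajc3, Dnajc30, Hspa1l, Hspb1 and Clpp were at 0.15, -0.12, 0.027, 0.054, 0.12 and 0.44. With the length trend removed, 0 ER members were lower and 2 CCT subunits higher, and Cct4, Dnaja1, Dnajc13, Dnajc16, Dnajc17, Dnajc18, Hspa13, Hspa1l, Hspa9, Hspe1 and Tcp1 were at 0.057, 0.22, 0.43, 0.43, -0.27, 0.15, 0.30, 0.007, 0.21, -0.16 and 0.095. With both trends removed, CCT subunits split 2 and 4, and Dnajc13, Dnajc16, Dnajc17, Dnajc18, Hspa1l, Hspa9, Hspb11 and Hspe1 were at 0.34, 0.59, -0.22, 0.093, 0.072, 0.002, -0.45 and -0.19. The cause of these changes was not tested. The counts are to be read beside the share of all genes called in each setting. With totals only 22.3% of all genes were higher and 54.4% lower, and with upper quartile scaling 30.4% and 44.4%. Without the count filter the shares were 19.9% and 25.8% of 29342 genes tested. Removal of the GC trend gave 37.9% and 36.7%, of the length trend 39.7% and 37.3%, and of both 38.9% and 37%. Over the fits that left out 1 library, higher and lower genes ranged from 5041 to 6233 and 5976 to 7008, members from 26 to 33 and 27 to 33, cytosolic members from 13 to 17 and 15 to 19, mitochondrial members from 2 to 3 and 2 to 3, ER members from 5 to 6 and 2 to 3, and CCT subunits from 0 to 1 and 2 to 4. In these fits the log2 changes of Dnaja3, Dnajc13, Dnajc16, Hspa13, Hspa1l and Clpp crossed 0, with ranges of -0.006 to 0.126, -0.24 to 0.14, -0.27 to 0.22, -0.17 to 0.002, -0.45 to 0.28 and -0.22 to 0.029. The replicate numbers did not pair the samples: same-numbered libraries had correlations of -0.105, 0.105 and -0.029 between their deviations from the group means. With the replicate block, 28 members were higher and 28 lower, beside 32.5% and 38.9% of all genes, and 0 CCT subunits were higher. The calls of Cct5 (0.25) and Dnajc18 (-0.32) were lost and no other member's was. DESeq2 size factors, TMM without globin genes, the DESeq2 test and limma-trend turned no member's direction. Members with few counts, such as Hspb3 and Cct6b, are limited by depth.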
